A study of Homo sapiens with 10 samples.

Results

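EGF was compared with nicotine in A549, a human lung carcinoma line, on 4 of the 10 arrays of the series. Arrays were chosen by their titles and by no measured value: control siRNA with EGF was set against control siRNA with nicotine, and ID1 siRNA with EGF against ID1 siRNA with nicotine. This gave 2 pairs matched on siRNA, and there was n = 1 array per condition. Every A549 culture in these pairs had been held without serum for 48 h and had then received either nicotine at 1 µM or EGF at 100 ng/ml for 18 h. The unstimulated A549 array was not used. ID1 encodes a helix-loop-helix protein that keeps basic helix-loop-helix factors off DNA, and its siRNA was present on both sides of the second pair. The siRNA sequence is not given in the sources used here. H1650, a lung carcinoma line with an EGFR mutation, has 4 arrays of the same design and is used for comparison. The labels do not say whether each array had a culture of its own, so p-values measure only the spread between these arrays. That spread is the gap between the control siRNA and ID1 siRNA pairs, pooled over both lines and drawn towards that of other genes. It is not a spread between repeats of a condition, and a response that depended on the siRNA counts in it as error.

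EGF binds the epidermal growth factor receptor, EGFR, and signals to the kinase ERK, which induces immediate early transcription factors, growth factor ligands and the phosphatases that later switch the pathway off. Nicotine binds nicotinic acetylcholine receptors, ion channels made of alpha and beta subunits that lung epithelial cells also carry. Since both arms of each pair were stimulated, a higher signal with EGF and a lower signal with nicotine cannot be told apart here.

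Signals were those of 1 probe set per gene, set by the authors to a common trimmed mean of 500, and array medians over all probe sets lay between 61.2 and 78.5 on the 4 A549 arrays. All 9 markers of A549 cells were above the filter on dim genes, with a median log2 signal of 14.5. Of 15 measured markers of blood, endothelial, fibroblast, erythroid or neuroendocrine cells, 5 passed that filter. Among these, the collagen COL1A1 had signals of 445.9 (control siRNA, nicotine), 457.8 (control siRNA, EGF), 469.5 (ID1 siRNA, nicotine) and 575.4 (ID1 siRNA, EGF). ID1 itself stood at 3720 with nicotine and 3049 with EGF under control siRNA, and at 1343 on both ID1 siRNA arrays. EGFR stood at 2054 and 2444 under control siRNA, and at 1886 and 1891 under ID1 siRNA. Neither gene differed between EGF and nicotine by the test (adjusted p = 0.752 for ID1 and 0.780 for EGFR, limma).

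Few genes differed between EGF and nicotine in A549 beyond the spread between pairs, and those that did were higher with EGF. Limma with the matched pairs as blocks called 2 of 12455 genes higher with EGF (0.0161%) and 0 lower (0%), at an adjusted p under 0.05. At an unadjusted p under 0.05, 644 genes were higher (5.17%) and 481 lower (3.86%). The gene's own spread in this fit came from both lines, with 2 residual degrees of freedom, and the median standard error was 0.15 on the log2 scale. A fit to the 4 A549 arrays alone, with 1 residual degree of freedom and a spread taken wholly from genes of like brightness, called 91 genes higher (0.731%) and 97 lower (0.779%), and without the brightness trend it called 0 in both directions.

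Counted by size alone, 6 genes were at least 2-fold higher with EGF in both pairs (0.0482%) and 2 at least 2-fold lower (0.0161%). Within the control siRNA pair 74 genes were 2-fold higher (0.594%) and 196 lower (1.57%). Within the ID1 siRNA pair 76 were higher (0.61%) and 67 lower (0.538%). With no limit on size, 3280 genes were higher in both pairs (26.3%), 3765 were lower in both (30.2%) and 5410 went opposite ways. Across genes, which are not independent replicates, the differences of both pairs correlated at r = 0.14.

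**Figure D1:**
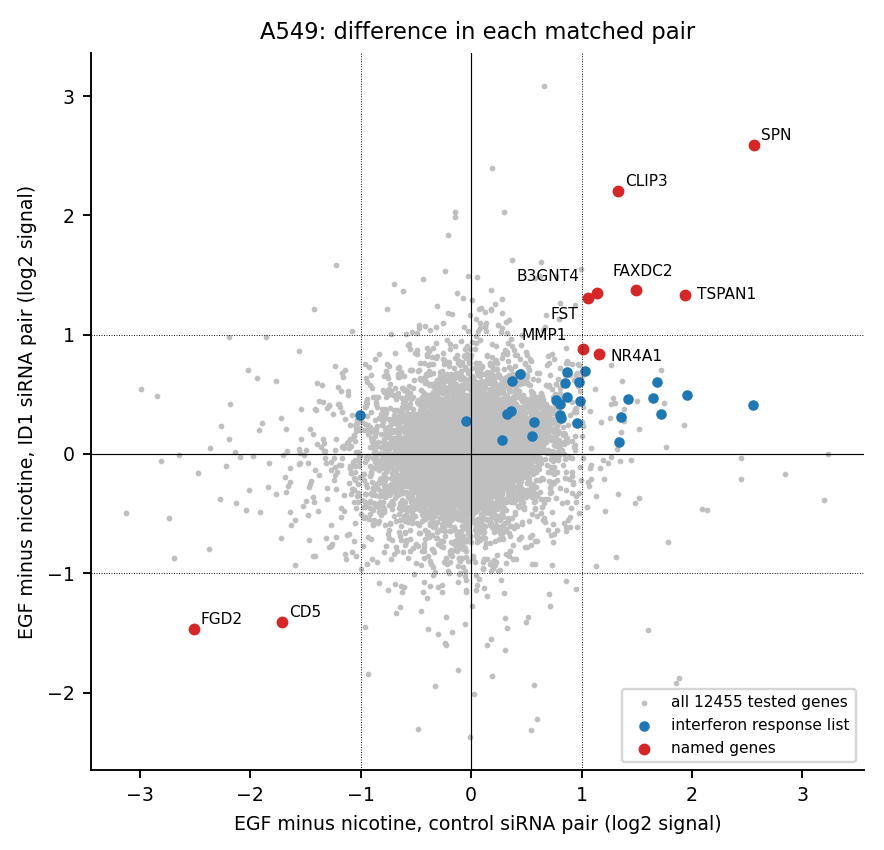
EGF minus nicotine (log2 signal) in the control siRNA pair (horizontal axis) and in the ID1 siRNA pair (vertical axis), 1 point per gene, with dotted lines at 2-fold. SPN and FAXDC2 lie beyond 2-fold on both axes, and 26 of 28 interferon response genes lie above 0 on both.

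FAXDC2, a fatty acid hydroxylase domain protein, rose with EGF over nicotine in both pairs. Its signal was 877.0 with nicotine and 2472.9 with EGF under control siRNA, and 335.4 and 869.4 under ID1 siRNA. Each EGF array was thus above its matched nicotine array, whereas the ID1 siRNA array with EGF and the control siRNA array with nicotine had nearly the same signal. The difference was 2.82-fold and 2.59-fold, or 1.43 ± 0.12 on the log2 scale (limma adjusted p = 0.00598). Here and below ± is limma's standard error for the 2 pairs of a line or, where a difference between lines is given, for that difference. Its spread was pooled over the matched pairs of both lines and drawn towards that of genes of like brightness. It is therefore not the spread of the 2 A549 pairs alone. Both other probe sets of FAXDC2 were dim and stood at 0.34 and 0.60. In H1650 the difference was -0.11, and the lines differed by 1.55 ± 0.17 (limma adjusted p = 0.0127). Without either A549 control siRNA array only the ID1 siRNA pair gave the A549 difference, at 1.37, and the gene was not called. Without the brightness trend the limma adjusted p in A549 was 0.716. Averaged over all its probe sets the difference was 0.79 with an adjusted p of 0.504.

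SPN, the sialophorin (CD43) of white blood cells, also rose. Its signal was 50.2 with nicotine and 296.5 with EGF under control siRNA, and 44.2 and 266.3 under ID1 siRNA, so that the groups did not overlap. In RNA of a whole culture, more cells with a transcript and more of it per cell cannot be told apart, and none of the white blood cell genes in the list of markers of other cell types passed the filter. Both nicotine arrays lay below the array's own median, and against that median SPN was at least 3.93-fold higher with EGF (log2 difference 2.58 ± 0.26, limma adjusted p = 0.0204). Its other 4 probe sets were below the filter and disagreed, at 0.86, -0.99, 1.55 and -0.47. The call was lost without either A549 control siRNA array or the A549 ID1 siRNA array with EGF, fits in which only the other A549 pair gave the difference. It was also lost without the brightness trend (limma adjusted p = 0.163) and without the filter (0.0596).

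The promoter of FAXDC2 is shown because it is the called gene whose start is in the RefSeq table (GRCh38.p14), 250 bases before to 50 after the gene's start, on the minus strand at chr5:154850554-154850853. Capitals mark both matches to the E-box CANNTG, the element of basic helix-loop-helix factors.
FAXDC2: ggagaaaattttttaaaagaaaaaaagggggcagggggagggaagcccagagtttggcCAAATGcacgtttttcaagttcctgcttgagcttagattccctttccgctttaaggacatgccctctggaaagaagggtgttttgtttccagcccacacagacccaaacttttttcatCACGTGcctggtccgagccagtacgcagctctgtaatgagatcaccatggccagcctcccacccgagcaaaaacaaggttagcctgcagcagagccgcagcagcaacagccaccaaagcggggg
These matches begin at -192 and -74 from the start and read CAAATG and CACGTG. Such a match occurs in 68.9% of all 27305 promoters of this length, searched on both strands. AP-1 (TGANTCA), ETS (CCGGAA) and CRE (TGACGTCA) had no match in the window, which says only that these letters are not there.

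Of the genes 2-fold apart in both pairs but not called, follistatin was the brightest. FST, the secreted antagonist of activins, had signals of 557.8 with nicotine and 1164.1 with EGF under control siRNA, and of 435.6 and 1078.1 under ID1 siRNA. Both EGF arrays were above both nicotine arrays, and the difference was 1.18 ± 0.17 (limma adjusted p = 0.151), with other probe sets at 1.12 and 0.75. The tetraspanin TSPAN1 (1.64 ± 0.24), the microtubule-associated CLIP3 (1.77 ± 0.59) and the glycosyltransferase B3GNT4 (1.24 ± 0.33) were dim with nicotine, and were at least 1.68-fold, 1.95-fold and 1.41-fold higher with EGF. The GTPase activator FGD2 (-1.99 ± 0.36) and the lymphocyte receptor CD5 (-1.56 ± 0.56) were at least 3.28-fold and 1.76-fold lower. For FGD2, 2 other probe sets above the filter stood at 0.22 and -0.31.

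**Figure D2:**
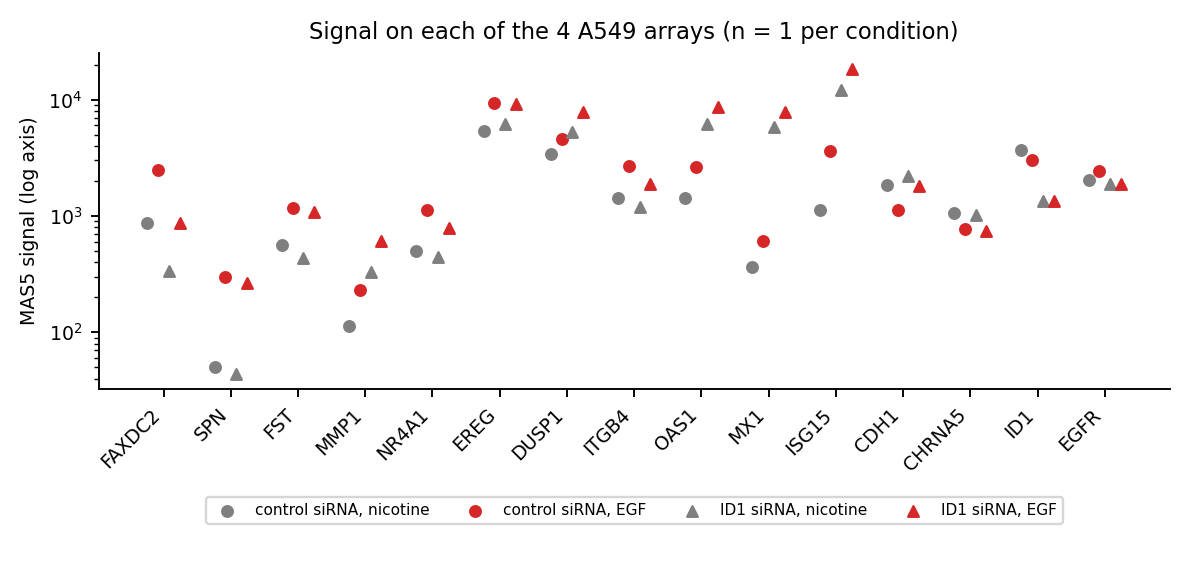
MAS5 signal (log axis) of 15 genes on the 4 A549 arrays, 1 point per array, grey for nicotine and red for EGF, circles for control siRNA and triangles for ID1 siRNA. FAXDC2, SPN and FST are higher with EGF in both pairs, and ID1 differs between siRNAs rather than between stimuli.

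The ligands EREG, HBEGF and TGFA of the EGF receptor were higher with EGF in both pairs, and the ERBB3 receptor lower, without passing the test, while the ligand BTC stood at -0.03 ± 0.23. Epiregulin, EREG, had signals of 5324.8 with nicotine and 9304.3 with EGF under control siRNA, and of 6206.3 and 9090.4 under ID1 siRNA. Both EGF arrays lay above both nicotine arrays (0.68 ± 0.16, limma adjusted p = 0.456), and the difference was 0.52 after quantile normalization. HBEGF, the heparin-binding ligand, stood at 265.7 and 335.5 under control siRNA and at 771.8 and 1013.6 under ID1 siRNA (0.36 ± 0.13). ERBB3 stood at 255.6 and 163.5, and at 391.6 and 291.8 (-0.53 ± 0.16). ERRFI1 (0.29 ± 0.10), a feedback inhibitor of the receptor, SOCS2 (0.33 ± 0.10), an inhibitor of cytokine signalling, and the ligand TGFA (0.20 ± 0.10) were higher in both pairs. After quantile normalization these stood at 0.20, 0.35 and 0.25. In the list of the receptor family, its ligands and inhibitors, 0 of 14 tested members were called, 7 were higher in both pairs and 3 lower (26.3% and 30.2% of all genes), with a median of 0.11 against -0.02 over all tested genes.

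Some feedback inhibitors and immediate early genes of the ERK pathway were also higher with EGF in both pairs, and none was called. DUSP1, a phosphatase of MAP kinases, had signals of 3396.3 and 4617.6 under control siRNA, and of 5235.2 and 7866.1 under ID1 siRNA (0.52 ± 0.11). The ERK phosphatase DUSP5 (0.42 ± 0.10) and the pleckstrin-homology protein PHLDA2 (0.40 ± 0.11) were higher in both pairs as well. After quantile normalization DUSP1, DUSP5 and PHLDA2 stood at 0.46, 0.45 and 0.24. DUSP6, another ERK phosphatase, differed less, at 0.20 ± 0.10, as did the receptor signalling inhibitors SPRY2 (0.23 ± 0.12) and SPRY4 (0.34 ± 0.14). DUSP4 went different ways, at 0.63 in the control siRNA pair and -0.04 in the ID1 siRNA pair. In the list of feedback inhibitors and related phosphatases, 0 of 18 tested members were called, 8 were higher in both pairs and 5 lower (26.3% and 30.2% of all genes), with a median of 0.13. List members that were lower included DUSP10 (-0.31 ± 0.19), DUSP14 (-0.20 ± 0.11) and SPRED2 (-0.16 ± 0.10).

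Among immediate early factors the nuclear receptor NR4A1 had signals of 500.7 with nicotine and 1114.8 with EGF under control siRNA, and of 440.0 and 788.3 under ID1 siRNA. Its groups did not overlap, and the difference was 1.00 ± 0.20 (limma adjusted p = 0.341), with dimmer probe sets at 0.77 and 0.54. The AP-1 subunit JUN stood at 1535.2 and 2462.2, and at 2845.6 and 4255.6 (0.63 ± 0.11, adjusted p = 0.259). EGR1 stood at 282.0 and 461.1, and at 925.4 and 1201.7, so that the siRNA separated its arrays more than the stimulus did (0.54 ± 0.21). MYC (0.17 ± 0.10), FOSL1 (0.07 ± 0.13) and FOS (0.16 ± 0.47) had smaller differences, while SRF, the serum response factor, was lower at -0.41 ± 0.20. Of 25 tested members 0 were called, 14 were higher in both pairs and 3 lower (26.3% and 30.2% of all genes), with a median of 0.17. After quantile normalization the counts were 17 and 1 (29.7% and 25.2% of all genes). Promoters were found for 31 of the 43 tested members of these 2 lists, and CRE matched in 12.9% of them, AP-1 in 6.45% and ETS in 22.6%, against 1.98%, 7.76% and 17.6% of all promoters and 3.15%, 4.66% and 29.3% of those of tested genes.

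Several integrins and matrix proteases were higher with EGF in both pairs, again without calls. The laminin receptor subunit ITGB4 had signals of 1431 with nicotine and 2666 with EGF under control siRNA, and of 1200 and 1896 under ID1 siRNA. Both EGF arrays exceeded both nicotine arrays (0.78 ± 0.12, limma adjusted p = 0.204). ITGA3, a partner of the beta 1 integrin, was higher by 0.64 ± 0.12, and the collagen receptor subunit ITGA2 by 0.44 ± 0.15. Of 18 tested integrin and focal adhesion genes 12 were higher in both pairs and 0 lower (26.3% and 30.2% of all genes), and after quantile normalization 12 and 3 (29.7% and 25.2% of all genes). The interstitial collagenase MMP1 stood at 113.4 and 228.8 under control siRNA, and at 331.5 and 609.9 under ID1 siRNA (0.95 ± 0.19, adjusted p = 0.341), and at 2.44 in H1650. The urokinase receptor PLAUR stood at 1290 and 1894, and at 2450 and 3088 (0.44 ± 0.14). Among 18 tested plasminogen activator and matrix protease genes 10 were higher in both pairs and 3 lower, with a median of 0.26, and after quantile normalization 7 and 3, with a median of 0.10. The shares of all genes given for the integrins apply to these counts as well.

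Of the receptors for nicotine, the alpha 5 subunit CHRNA5 was lower with EGF in both pairs by nearly equal amounts. Its signal was 1052.7 with nicotine and 774.8 with EGF under control siRNA, and 1009.4 and 746.0 under ID1 siRNA. Both EGF arrays were thus below both nicotine arrays, and the difference was -0.44 ± 0.14 (limma adjusted p = 0.480). CHRNA3, the neighbouring alpha 3 subunit, went opposite ways, from 230.8 to 29.1 under control siRNA and from 54.2 to 79.2 under ID1 siRNA. Its signals of 29.1 and 54.2 lay below the medians of their arrays (61.2 and 78.5), so the size of both changes is uncertain. CHRNA9 stood at 0.54 ± 0.38 and the beta 2 subunit CHRNB2 at -0.23 ± 0.25. Of 11 tested nicotinic and adrenergic receptor genes 3 were higher in both pairs and 2 lower (26.3% and 30.2% of all genes), with a median of -0.03.

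Interferon-induced genes had the largest median difference of the 30 lists, and its members were higher with EGF than with nicotine in nearly every case. Type I interferons switch these genes on through the factor ISGF3, which contains IRF9 and binds the interferon-stimulated response element. Of 28 tested members 26 were higher in both pairs (26.3% over all genes) and 0 were lower in both (30.2%). The same counts were found after quantile normalization (29.7% and 25.2% over all genes). The list median was 0.86 in the control siRNA pair and 0.42 in the ID1 siRNA pair, with all 28 members higher in the latter. In the control siRNA pair the signals of 9 members were 2-fold or more higher with EGF (0.594% over all genes), and in the ID1 siRNA pair 0 members reached 2-fold. Limma called 0 members, whose smallest adjusted p was 0.259, while 24 were higher at an unadjusted p under 0.05 (5.17% over all genes). In the fit to the A549 arrays alone 20 members were called higher (0.731% over all genes), and without the brightness trend that fit called 0 genes.

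ISG15, a ubiquitin-like modifier, had signals of 1123.3 with nicotine and 3599.1 with EGF under control siRNA, and of 12150.6 and 18487.9 under ID1 siRNA. The siRNA separated these arrays further than the stimulus did, and within each siRNA the EGF array was higher (1.14 ± 0.21, limma adjusted p = 0.295). OAS1, which makes the oligoadenylates that activate RNase L, stood at 1436.8 and 2620.9, and at 6159.0 and 8578.0 (0.67 ± 0.12). MX1, an antiviral GTPase, stood at 361.0 and 614.9, and at 5755.3 and 7894.2 (0.61 ± 0.11). Both had the same order of the 4 arrays as ISG15. IRF7, the factor that amplifies interferon production, stood at 470.6 and 963.3, and at 2749.4 and 4442.4 (0.86 ± 0.26). IFI44L stood at 25.0 and 147.1, and at 1979.2 and 2628.5, and since its nicotine array under control siRNA lay below the array median, the size of its difference is uncertain. BST2 (tetherin) and RSAD2 (viperin) were below the array median on both control siRNA arrays. The exceptions were MX2, at -0.05 and 0.27, and GBP1, whose signal was 102.0 and 50.9 under control siRNA, the latter below the array median, and 1572.4 and 1977.0 under ID1 siRNA.

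In H1650 the same list stood on the other side of 0, at a median of -0.69. There 26 of the 28 members were lower with EGF in both pairs, against 30.8% of all genes (3842), and 24 were higher in both A549 pairs and lower in both H1650 pairs, against 6.91% of all genes (861). Limma called the difference between lines higher in A549 for 9 genes (0.0723%) and lower for 1 (0.00803%), and 5 of the 9 were list members. These were CMPK2, a mitochondrial nucleotide kinase (1.84 ± 0.19, adjusted p = 0.0122), OAS1 (1.73 ± 0.17, 0.0122), IFITM1, which restricts viral entry (1.74 ± 0.22, 0.0292), MX1 (1.25 ± 0.15, 0.0230) and OASL, an OAS1 relative (1.52 ± 0.21, 0.0498). IFI35, a further interferon-induced gene, was outside the list (1.21 ± 0.15, 0.0230). Within H1650 limma called 14 genes higher (0.112%) and 26 lower (0.209%), among them OAS1 at -1.06, CMPK2 at -1.05 and IFITM1 at -1.17. Without either A549 control siRNA array, the one with nicotine or the one with EGF, 0 genes were called higher in A549 for the difference.

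**Figure D3:**
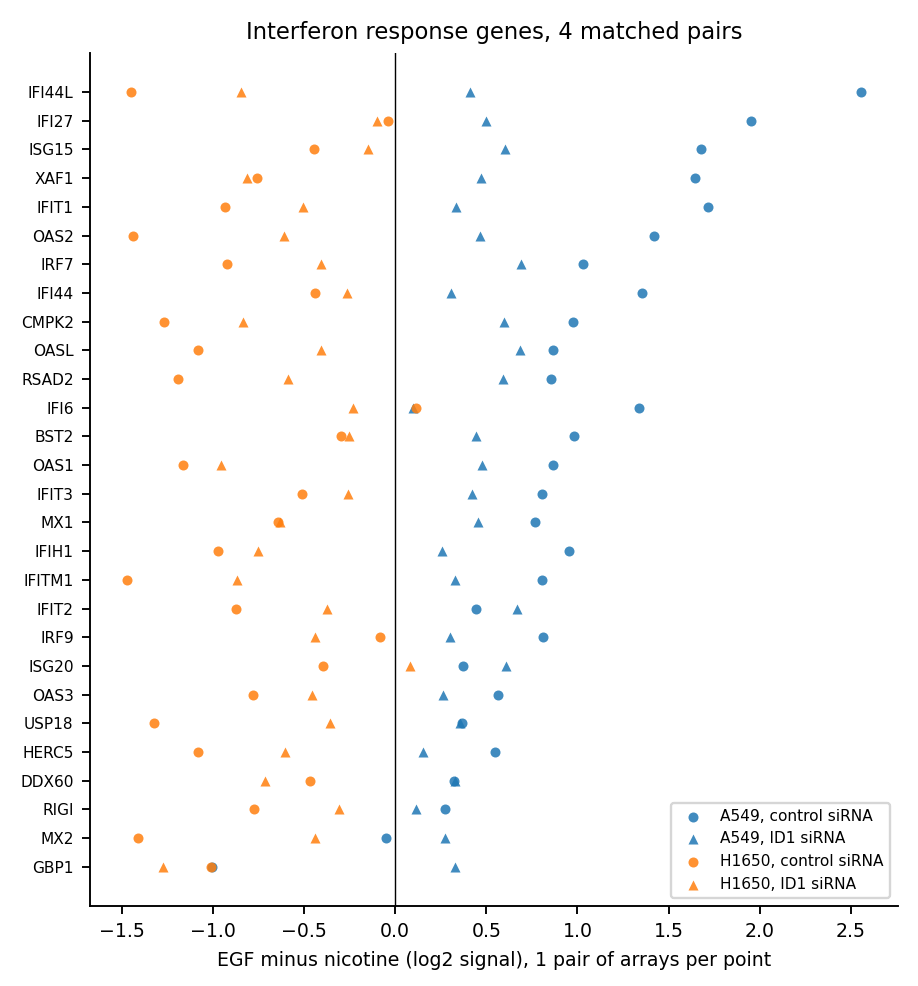
EGF minus nicotine (log2 signal) for the 28 tested interferon response genes, 1 point per pair of arrays, blue for A549 and orange for H1650, circles for control siRNA and triangles for ID1 siRNA. The A549 medians are 0.86 and 0.42, and the H1650 points lie mostly below 0.

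Promoters of 3 genes called in that difference are shown for the response element, with capitals on the core AAANNGAAA, a motif chosen after the values were seen.
OAS1: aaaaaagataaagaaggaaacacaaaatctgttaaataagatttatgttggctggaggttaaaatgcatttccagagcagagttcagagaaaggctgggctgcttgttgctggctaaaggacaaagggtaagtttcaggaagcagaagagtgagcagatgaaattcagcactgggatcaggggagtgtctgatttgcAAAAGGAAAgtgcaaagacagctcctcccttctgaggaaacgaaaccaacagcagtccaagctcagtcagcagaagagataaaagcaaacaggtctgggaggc
MX1: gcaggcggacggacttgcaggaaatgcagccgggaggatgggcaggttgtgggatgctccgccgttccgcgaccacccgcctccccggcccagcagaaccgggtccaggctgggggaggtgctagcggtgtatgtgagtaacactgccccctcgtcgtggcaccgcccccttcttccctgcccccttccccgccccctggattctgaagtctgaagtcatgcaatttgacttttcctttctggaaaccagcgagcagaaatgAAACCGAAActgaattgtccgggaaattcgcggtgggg
IFITM1: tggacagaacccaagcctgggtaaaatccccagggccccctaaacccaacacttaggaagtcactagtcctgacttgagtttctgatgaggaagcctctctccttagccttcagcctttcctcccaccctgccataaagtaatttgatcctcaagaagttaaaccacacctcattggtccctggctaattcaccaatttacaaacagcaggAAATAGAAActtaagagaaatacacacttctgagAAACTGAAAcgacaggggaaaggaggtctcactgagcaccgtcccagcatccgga
These windows are RefSeq's (GRCh38.p14) at chr12:112906712-112907011, chr21:41420308-41420607 and chr11:313790-314089, all on the plus strand. The core begins at -53 in OAS1 (AAAAGGAAA), at 13 in MX1 (AAACCGAAA), and at -39 (AAATAGAAA) and -5 (AAACTGAAA) in IFITM1. Of the 28 tested list members 22 had a promoter in the table, and the core matched in 19 of these (86.4%), on either strand, against 10.6% of all promoters and 7.13% of those of tested genes. CMPK2 and IFI35 had no match in their windows. The pattern has a fixed gap, so stretches with a shorter gap are not marked, such as ggaaacgaaacc in OAS1 and ggaaatgaaag in IFI35. A match or its absence concerns only these letters, and which stretch is bound was not tested.

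How bright a gene was moved with its difference in the control siRNA pair. The 684 genes with a mean log2 signal of 13 or more had a median difference of 0.42 in that pair and 0.12 in the ID1 siRNA pair, whereas genes between 8 and 9 stood at -0.13 and 0.01. The brightest probe sets of an array reached a maximum of 56869 on the control siRNA array with EGF, of 34674 on its nicotine partner, and of 46205 and 35153 with EGF and nicotine under ID1 siRNA, and the hybridisation spike cre was at 38889 against 25201 in the control siRNA pair. Under ID1 siRNA cre stood at 30520 with EGF and 25203 with nicotine. Quantile normalization, which gives all arrays the same distribution, brought the brightest genes to 0.00 in both pairs, and 3696 genes were then higher in both pairs (29.7%) and 3135 lower (25.2%).

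**Figure D4:**
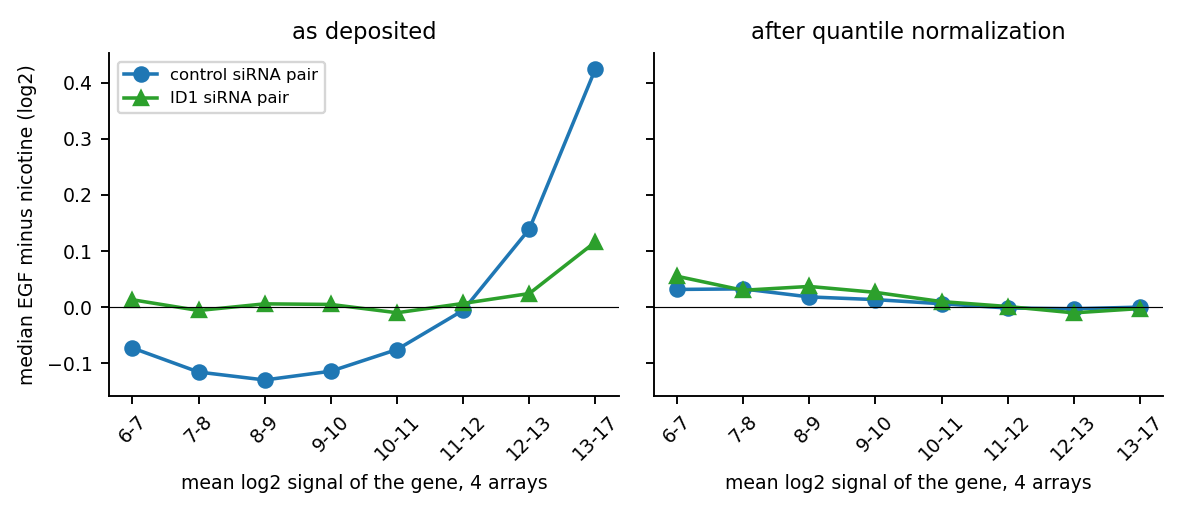
Median of EGF minus nicotine (log2) for genes binned by mean log2 signal over the 4 A549 arrays, as deposited (left) and after quantile normalization (right), with 1 line per matched pair. The brightest bin stands at 0.42 in the control siRNA pair as deposited and at 0.00 after quantile normalization.

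Lists made of bright genes followed that shift. Over all genes 26.3% were higher in both pairs and 30.2% lower, and 29.7% and 25.2% after quantile normalization. All 13 tested ribosomal proteins were higher in both pairs, with RPS14 at 0.76 and 0.29, and 6 remained so after quantile normalization. Targets of NRF2, a factor that senses oxidative stress, were higher in both pairs for 13 of 21 and lower for 4, and after quantile normalization for 1 and 14. Oxidative phosphorylation genes went from 11 higher and 0 lower of 21 to 2 and 3, and A549 epithelial markers from 7 and 2 of 9 to 2 and 5. KRT18, an epithelial keratin with signals of 28651.8 and 47575.7, and of 26808.3 and 32675.0, stood at 0.51 ± 0.18 as deposited and at 0.06 after quantile normalization. The mesenchymal filament vimentin, VIM, stood at 0.50 ± 0.14 and at 0.15. HMOX1, the haem oxygenase, kept its direction, at -0.51 ± 0.12 and -0.52. What part the difference in brightness has in single genes was not tested.

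Adhesion and lineage genes of moderate signal gave some of the lower values. E-cadherin, CDH1, had signals of 1862.4 with nicotine and 1122.4 with EGF under control siRNA, and of 2210.4 and 1818.3 under ID1 siRNA, and was lower by 0.73 and 0.28 (-0.51 ± 0.13, limma adjusted p = 0.461). SPARC, a collagen-binding matrix protein, stood at 248.3 and 158.3, and at 677.9 and 429.8, with nearly equal differences of -0.65 and -0.66 (-0.65 ± 0.12, adjusted p = 0.295). ZMAT3, a p53 target that binds RNA, stood at 1185 and 763.0, and at 1056 and 763.9 (-0.55 ± 0.13). The list counts that follow are to be read against 26.3% higher and 30.2% lower over all genes, and 29.7% and 25.2% after quantile normalization. Of 19 tested p53 targets 4 were higher in both pairs and 11 lower, and 5 and 9 after quantile normalization, while GDF15, a stress-induced cytokine, stood at 0.39 ± 0.12. NSDHL, an enzyme of cholesterol synthesis, stood at -0.46 ± 0.12, and its list had 4 of 18 higher and 4 lower, and 6 and 4 after quantile normalization. The epithelial junction and keratin list had 4 of 19 higher in both pairs and 7 lower (4 and 8 after quantile normalization), and the mesenchymal list 5 of 21 and 7 (5 and 8). For the TGF-beta, BMP and YAP list, 4 of 21 higher and 10 lower became 5 and 6.

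Cell cycle genes differed little. CDC20, the activator of the anaphase-promoting complex, stood at 0.36 ± 0.10 and the replicative helicase subunit MCM7 at 0.25 ± 0.10, neither called. The counts given next are of members higher and lower in both pairs, to be read against 26.3% and 30.2% of all genes, with the counts after quantile normalization in brackets, against 29.7% and 25.2%. They were 17 and 5 of 30 G1/S and DNA replication genes (15 and 7), 12 and 5 of 27 G2/M genes (11 and 6), 4 and 1 of 5 CDK inhibitors (3 and 1), and 11 and 0 of 17 ribosome biogenesis genes (9 and 3). NF-kB targets had 11 and 5 of 21 (8 and 3), hypoxia and glycolysis 13 and 4 of 29 (13 and 5), and amino acid, ATF4 and unfolded protein genes 10 and 4 of 24 (9 and 7). Fatty acid synthesis, where the desaturase FADS2 stood at 0.42 ± 0.11, went from 6 and 3 of 10 to 3 and 4, so that its balance turned. Growth and IGF signalling had 8 and 9 of 21 (8 and 6), and the BCL2 family, where the survival factor BCL2A1 stood at 0.56 ± 0.21, 7 and 2 of 14 (7 and 1). The ID family and its partners had 4 and 4 of 13 (3 and 3), the aryl hydrocarbon receptor list 3 and 4 of 8 (3 and 3), mucins and lung lineage 1 and 2 of 14 (1 and 1), and markers of other cell types 2 and 1 of 5 (3 and 0). Limma called 0 members of any of the 30 lists in A549.

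**Figure D5:**
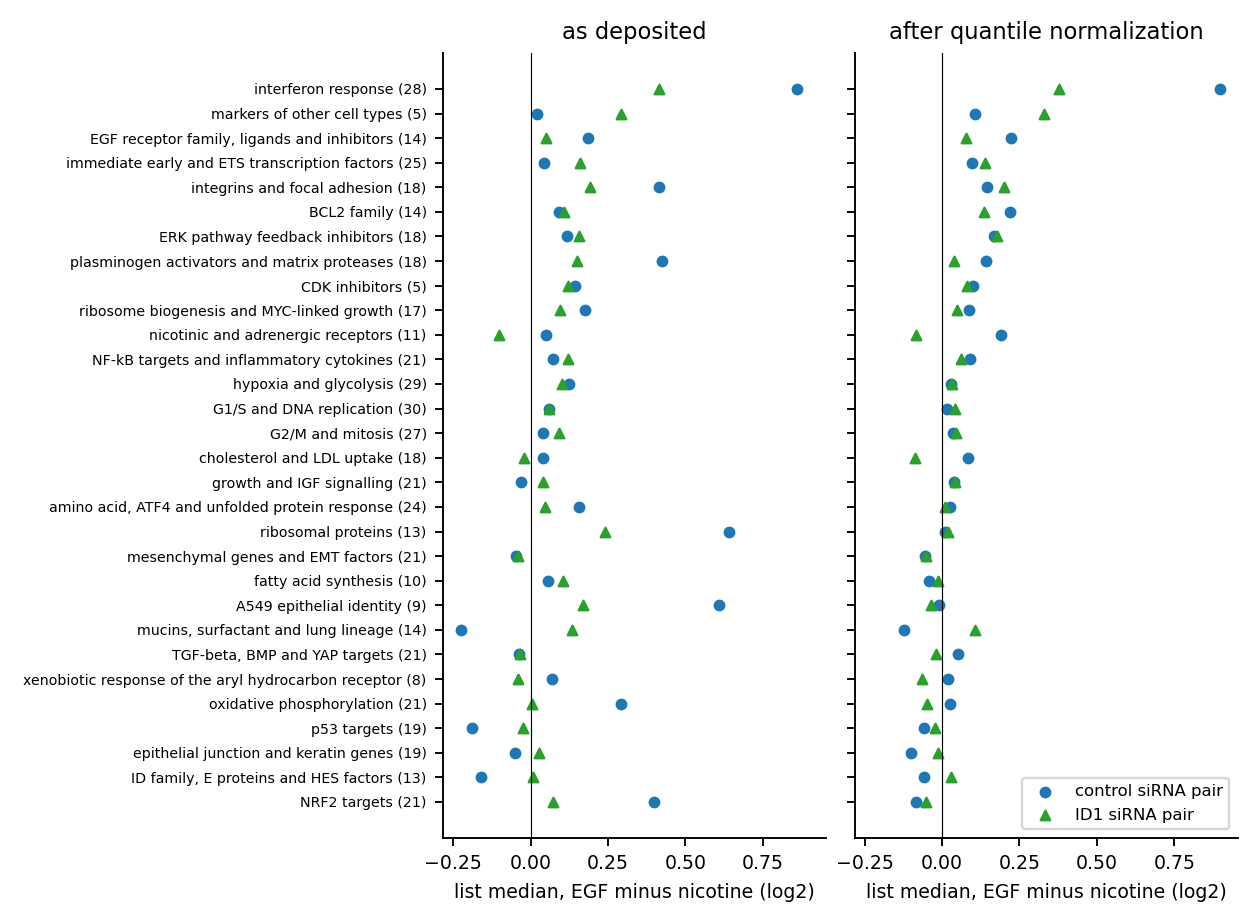
Median of EGF minus nicotine (log2) for each gene list in the control siRNA pair (blue) and the ID1 siRNA pair (green), as deposited (left) and after quantile normalization (right), with the number of tested genes in brackets. The interferon list keeps medians of 0.90 and 0.38 after quantile normalization, and the ribosomal median goes from 0.64 to 0.01 in the control siRNA pair.

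Opposite directions in the pairs were found for 5410 of the 12455 tested genes. Those named here are from the largest gaps, and their probe sets were mostly dim. The muscle protein gene MYOZ3 went from 38.9 with nicotine to 140.4 with EGF under control siRNA, and from 164.5 to 43.5 under ID1 siRNA. LINGO3 went from 47.2 to 173.6 and from 163.5 to 44.4, and the peptidylarginine deiminase PADI3 from 59.5 to 180.9 and from 67.5 to 24.3. These 3 were higher with EGF under control siRNA and lower under ID1 siRNA. The neurotrophic factor CDNF went from 123.9 to 34.2 and from 46.0 to 90.5, and the zinc finger gene ZNF235 from 329.7 to 141.5 and from 73.3 to 219.1, which is the opposite order. With 1 array per condition, such a gap between the pairs has no test of its own.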

How the data were processed

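The authors deposited linear MAS5 signal intensities, 1 per probe set of Affymetrix U133 Plus 2.0 arrays, made with GCOS 1.4 and MAS5 per the submitters' processing notes. The labels mention log2, but the deposited values are linear, so log2 was taken here. Of 54675 probe sets, 62 controls, 1801 with several symbols and 11721 without a gene were left out; 41037 of the remaining 41091 matched RefSeq by Entrez identifier. The brightest probe set stood for each of 19775 genes, and 12455 genes entered the tests, those whose mean over the 4 A549 arrays reached the median probe set (log2 6.01, a signal of 64.3).

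The 8 stimulated arrays of both lines were fitted in limma 3.58.1 (R 4.3.3), with matched pair (line and siRNA) as block, an EGF term within each line, a brightness trend and Benjamini-Hochberg adjustment. The prior had a median of 7.36 degrees of freedom. The code was checked on simulated data. Members and gene lists were chosen with earlier results of these data known. Named genes were called genes, genes 2-fold apart in both pairs, up to 3 per list with the largest smaller pair difference, up to 6 per direction with the largest gap between pairs, ID1 and EGFR; other list members were chosen after their values were seen, and the text names a selection. An at least fold uses the array median as floor. Precision is limited by the number of arrays.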

Additional observations from a re-analysis of the deposited data

Results flagged for a closer look

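In 10 genes EGF minus nicotine differed between A549 and H1650 by limma's test of the difference itself, with 2 matched pairs per line. OAS1, CMPK2, IFITM1, MX1, OASL and IFI35, all interferon-induced, had log2 differences of 1.73, 1.84, 1.74, 1.25, 1.52 and 1.21, and were higher in 2 of 2 A549 pairs and lower in 2 of 2 H1650 pairs. In the same order they stood at 0.67, 0.79, 0.57, 0.61, 0.78 and 0.47 in A549. In H1650 they stood at -1.06, -1.05, -1.17, -0.64, -0.74 and -0.74. FAXDC2 differed by 1.55, being higher in both A549 pairs and near 0 in H1650.

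In the other 3 genes the larger part of the difference lay in H1650, as it did for OAS1, CMPK2, IFITM1 and IFI35. QPCT, the glutaminyl cyclase, differed by 3.02 ± 0.30 (adjusted p = 0.0122), with 0.06 in A549 and -2.95 in H1650. STEAP1, a metalloreductase, differed by -1.52 ± 0.17 (adjusted p = 0.0159), with -0.10 in A549 and 1.42 in H1650. QPCT, STEAP1 and IFI35 are outside the naming rule and are given because this test called them. AKR1C2, an aldo-keto reductase, differed by 1.57 ± 0.16 (adjusted p = 0.0122), with -1.14 in H1650 and 0.43 in A549, or 0.04 in A549 after quantile normalization.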

How the results depend on the processing

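The 2 calls higher with EGF in A549 were FAXDC2 and SPN also with quantile normalization, with 16 added to the signal and with robust variances. Centring each array on its median, which moved the median difference from -0.02 to 0.05, gave 12 higher and 1 lower. No filter gave 1 and 1, the upper-quartile filter 1 higher, and the mean of all probe sets, no trend, or line in place of the pair 0 higher. A549 arrays alone gave 91 and 97. After seeing the data, the same fit with quantile normalization (60 and 14) and without trend (0 higher) was added. Leaving out each array gave 0 to 71 higher and 0 to 50 lower, with 0 higher without either A549 control siRNA array, 10 or 11 without an A549 ID1 siRNA array, and 68 to 71 without an H1650 array. Of 513 distinct list genes tested in the main fit 0 were called, which became 6 after centring, 37 with A549 arrays alone and 29 with quantile normalization added. These are to be read beside the counts over all genes given above, which with A549 arrays alone were 0.731% higher and 0.779% lower.

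The difference between lines, with 9 genes higher and 1 lower, had 34 and 5 after centring, 7 and 2 after quantile normalization, 17 higher with 16 added, 5 without filter, 24 with the upper-quartile filter and 22 with robust variances. It had 0 and 0 with the mean of all probe sets, no trend, or line in place of the pair, and 0 to 244 higher and 1 to 113 lower with an array left out. At 1.5-fold in both A549 pairs, 55 genes were higher and 62 lower. FAXDC2 and SPN kept their sign under every setting in which they were fitted. The cause of these changes was not tested. No paired analysis beyond the matched pairs was possible because the labels give no replicate numbers shared between groups. With 2 residual degrees of freedom, an array left out leaves 1, and the spread then comes more from other genes. The partner of that array is fitted by its own block, so the difference in its line rests on the other pair only.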
